A study of Homo sapiens with 8 samples.

Results

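The Mediator complex and the general factor TFIID were followed as mRNAs in P-bodies and in the cytosol of 2 human acute myeloid leukaemia lines. Members were taken by symbol alone, as MED or TAF followed by a number with an optional B or L, plus TBP. This gave 52 genes of the 60196 used, namely 30 Mediator subunits and 22 genes with TAF symbols or TBP. Of these 22, TAF1B, TAF5L, TAF6L and TAF15 belong outside TFIID. The groups were MOLM-13 P-body, MOLM-13 cytosol, HEL P-body and HEL cytosol, with 2 libraries each and 8 in all. MOLM-13 is an established monocytic line and HEL an established erythroleukaemia line. Both were grown untreated, as far as the labels say, in serum-supplemented RPMI medium. The titles name the fractions only, "cyto" was read as cytosol, and the sources used here give no method of P-body isolation. Since the labels do not state whether replicates are separate cultures, the p-values reflect the spread of these libraries alone, and that spread may be technical.

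Mediator carries signals from DNA-bound activators to RNA polymerase II. It is built of a head, a middle and a tail on a scaffold subunit, and a dissociable kinase module turns its contact with the polymerase on and off. TFIID is the factor that recognises the core promoter, and it consists of the TATA-binding protein TBP and TBP-associated factors (TAFs), many of which sit in pairs joined through histone folds. P-bodies are cytoplasmic granules in which mRNAs are held with decay factors and translational repressors, apart from active ribosomes. The subunits of each complex work as proteins in fixed numbers in the nucleus, so their mRNAs were compared subunit by subunit.

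Total counts ran from 5897625 to 11000536 per MOLM-13 library and from 13153551 to 18071473 per HEL library. The 52 members together took 0.343% to 0.347% of counts in MOLM-13 P-bodies, against 0.278% to 0.286% in MOLM-13 cytosol. They took 0.263% to 0.275% in HEL P-bodies, against 0.254% to 0.256% in HEL cytosol. Markers fitted the line labels: the 13 myeloid markers summed to 1480 to 1500 counts scaled to library size (CPM) in MOLM-13 P-bodies and 1620 to 1660 CPM in MOLM-13 cytosol, and to at most 107 CPM in any HEL library. The 13 erythroid and megakaryocytic markers summed to 1460 to 1510 CPM in HEL P-bodies and 2750 to 2930 CPM in HEL cytosol, and to at most 45.7 CPM in any MOLM-13 library. The 7 lymphoid markers summed to at most 37.4 CPM in any MOLM-13 library and to at most 4.61 CPM in any HEL library. The 6 nuclear-retained RNAs summed to 3870 to 3890 CPM in MOLM-13 P-bodies and 4910 to 5260 CPM in MOLM-13 cytosol, against 919 to 981 CPM in HEL P-bodies and 799 to 873 CPM in HEL cytosol. The part of these differences in the results below was not tested. In such bulk libraries, fewer cells of a type and less RNA per cell cannot be told apart, and neither can more of an mRNA in P-bodies and less of it in the cytosol. CPM here are library-size-scaled counts with trimmed-mean (TMM) factors, and each change is relative to the other genes of the library.

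The subunit mRNAs of both complexes were split between the fractions, and the split was drawn inside each complex. In MOLM-13, 49 members were tested, of which 18 were higher in P-bodies, 11 were lower and 20 were not called. A gene was called at an adjusted p below 0.05 in edgeR's quasi-likelihood test over all genes. Over all 14089 genes tested in MOLM-13, 32.4% were called higher and 28.5% lower, 60.8% in either direction. In HEL, 50 members were tested, of which 19 were higher, 14 were lower and 17 were not called. Over all 14772 genes tested in HEL, 27.5% were called higher and 27.1% lower, 54.6% in either direction. The members' log2 changes had a median of 0.0542 in MOLM-13, against -0.0369 over all genes, and of -0.0253 in HEL, against -0.0617 over all genes. Their range was -1.08 to 1.79 in MOLM-13 and -1.70 to 1.69 in HEL. The shares of tested members called were 36.7% higher and 22.4% lower in MOLM-13, and 38% higher and 28% lower in HEL. No test was made of these shares against all genes, and what follows concerns which subunits lay on which side.

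The calls of both lines matched in direction wherever both made one. A set of 15 members was higher in both lines, namely MED1, MED4, MED7, MED13, MED13L, MED23, TAF1, TAF1B, TAF2, TAF3, TAF5L, TAF7, TAF9, TAF12 and TAF13. A set of 9 was lower in both lines, namely MED12, MED15, MED16, MED18, MED22, MED24, MED25, MED29 and TAF10. None of the members was called in opposite directions. No such count over all genes is given here, and the changes of all 11984 genes tested in both lines also correlated (Pearson 0.709, against 0.774 over the members). MED6, MED8 and TAF15 were called higher in MOLM-13 alone, and MED21, TAF11 and TAF4B in HEL alone. MED11 and MED19 were called lower in MOLM-13 alone, and MED9, MED14, MED20, TAF6 and TBP in HEL alone. Neither line called MED10, MED17, MED26, MED27, MED28, MED30, MED31, TAF4, TAF5, TAF6L, TAF8 or TAF9B. TAF1L and TAF7L, with at most 10 counts in any library, were tested in neither line, and MED12L was not tested in MOLM-13.

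**Figure D1:**
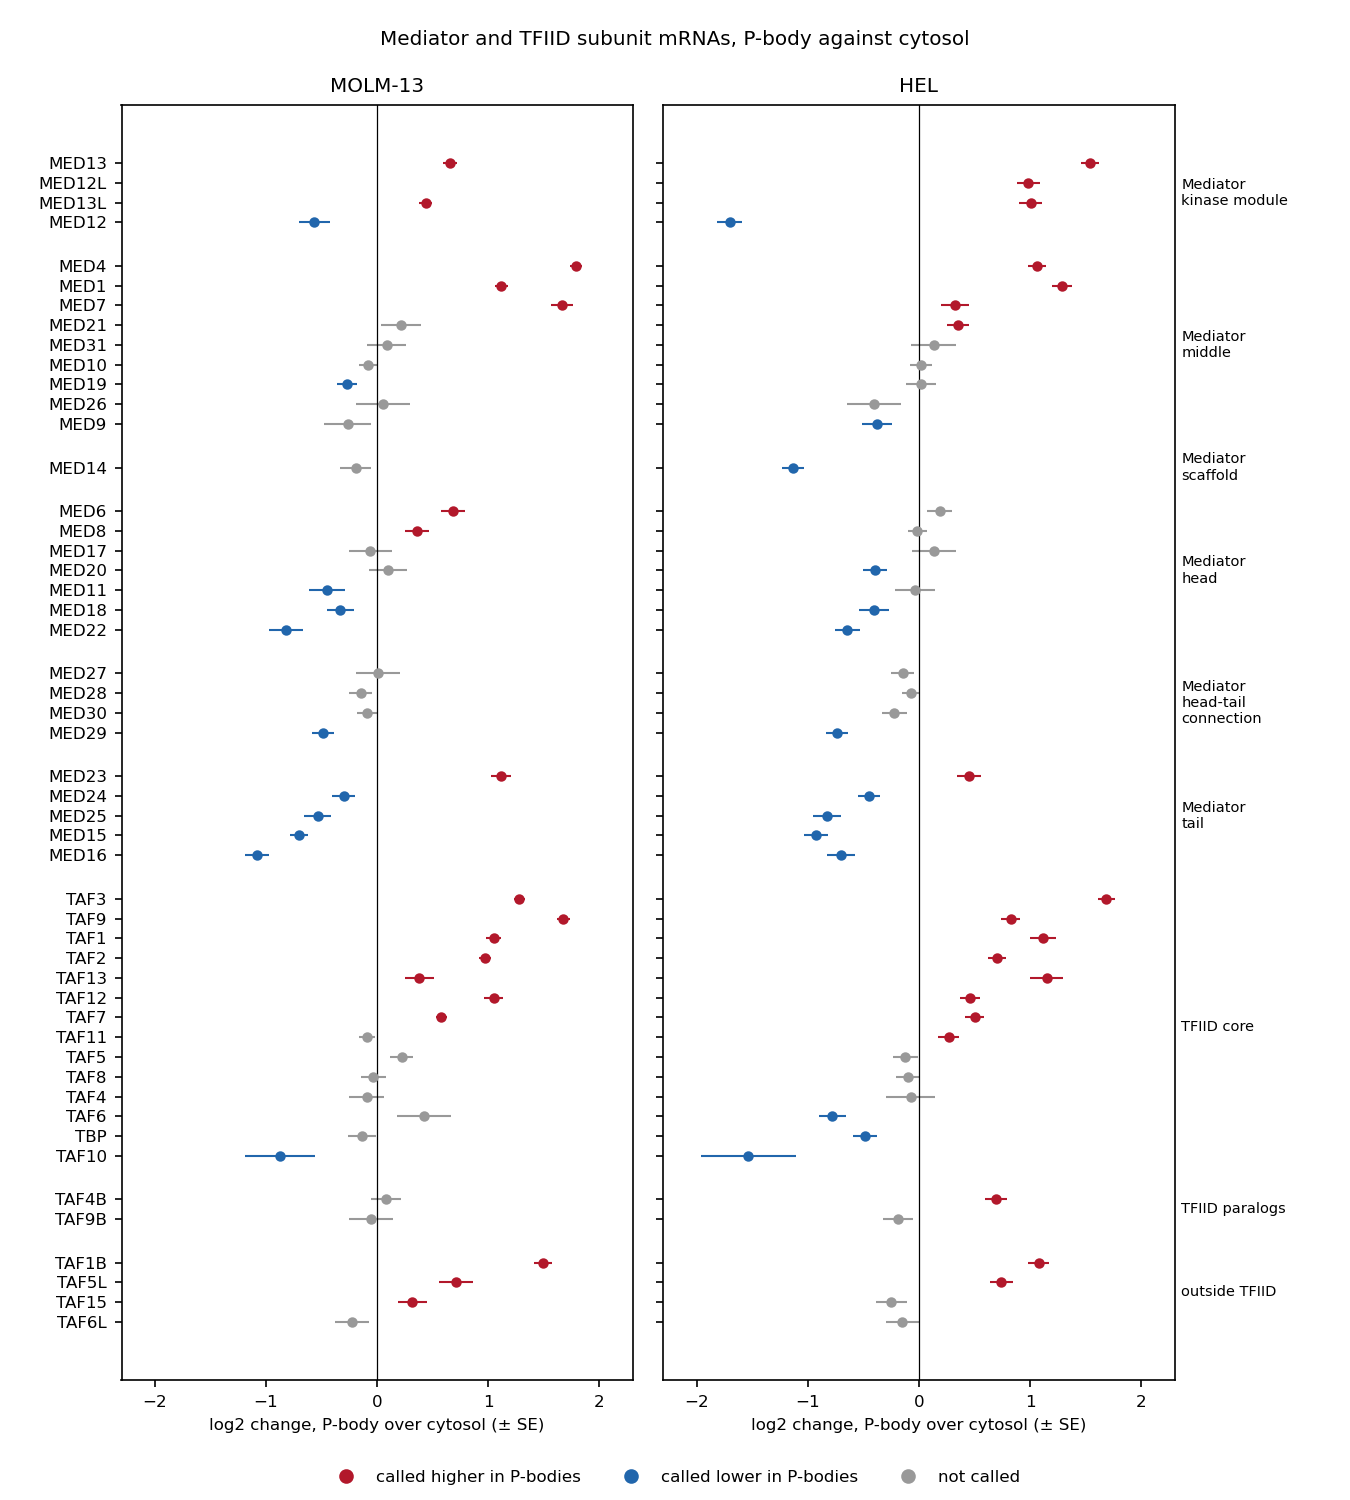
Log2 change of each tested subunit mRNA, P-body over cytosol, in MOLM-13 (left) and HEL (right), ordered by module. Points are edgeR estimates, bars are ± 1 standard error (SE), and colours mark calls at an adjusted p below 0.05. The kinase module spans the panel in HEL, with MED12 at -1.70 and MED13 at 1.54, and the tail holds MED23 above 0 and its other 4 subunits below 0 in both lines.

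The coding sequences of members on the opposite sides differed in their median base composition at the third position of codons, where most synonymous changes fall. The sides overlapped: in HEL the share of G or C there ran from 30.4% to 63.7% for members called higher and from 41.1% to 88.0% for those called lower. As examples of the difference, 60 bases (20 codons) from the middle of the coding sequence are printed, with G or C at the third codon position in capitals. They come from 3 subunits that were higher in P-bodies (MED4, MED13, MED7) and 3 that were lower (MED12, MED15, MED16). Members that departed from the difference are named further on. The windows were taken by position in the sequence, from GENCODE release 29 on GRCh38, and are written in the direction of the mRNA.

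MED4: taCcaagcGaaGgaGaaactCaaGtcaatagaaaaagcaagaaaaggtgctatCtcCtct
MED13: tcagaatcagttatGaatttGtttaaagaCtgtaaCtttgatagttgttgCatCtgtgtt
MED7: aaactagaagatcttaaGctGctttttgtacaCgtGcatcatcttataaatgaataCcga
MED12: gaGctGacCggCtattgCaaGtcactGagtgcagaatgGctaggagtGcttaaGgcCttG
MED15: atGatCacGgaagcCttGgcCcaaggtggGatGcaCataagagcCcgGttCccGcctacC
MED16: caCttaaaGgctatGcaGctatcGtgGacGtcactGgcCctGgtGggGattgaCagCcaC

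MED4 (chr13:48053323-48095131, minus strand, coding bases 376 to 435) had G or C at 8 of the 20 codons' last positions. MED13 (chr17:61942605-62065282, minus strand, coding bases 3232 to 3291) had 6, and MED7 (chr5:157137412-157159019, minus strand, coding bases 322 to 381) had 5. MED12 (chrX:71118556-71142454, plus strand, coding bases 3238 to 3297) had 12, MED15 (chr22:20495913-20587632, plus strand, coding bases 1153 to 1212) had 14, and MED16 (chr19:867630-893218, minus strand, coding bases 1288 to 1347) had 15. Over the whole coding sequence the share of G or C at the third positions was 39.5% for MED4, 30.7% for MED13 and 34.2% for MED7, and 62.1% for MED12, 73.1% for MED15 and 88.0% for MED16. The relation over all members is given further on.

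The kinase module held mRNAs at both ends of the HEL range. MED12 is the subunit that activates the module's kinase, and MED13 is the subunit that tethers the module to the rest of Mediator. MED12 had 14.1 and 14.9 CPM in MOLM-13 P-bodies, against 22.7 and 20.3 CPM in MOLM-13 cytosol. It had 29 and 23.9 CPM in HEL P-bodies, against 80.8 and 91.3 CPM in HEL cytosol. The fractions did not overlap in either line, and MED12 was lower in P-bodies by log2 -0.56 ± 0.141 (SE, n = 2 against 2, edgeR adjusted p = 0.00128) in MOLM-13 and by -1.70 ± 0.113 (edgeR adjusted p = 7.38e-09) in HEL, the lowest value of any member in HEL.

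MED13 went the other way. It had 164 and 164 CPM in MOLM-13 P-bodies, against 99.3 and 108 CPM in MOLM-13 cytosol. It had 217 and 197 CPM in HEL P-bodies, against 71.2 and 71.6 CPM in HEL cytosol. The log2 change was 0.66 ± 0.0625 (SE, edgeR adjusted p = 1.56e-09) in MOLM-13 and 1.54 ± 0.0821 (edgeR adjusted p = 7.28e-10) in HEL. Its paralog MED13L had 212 and 204 CPM in MOLM-13 P-bodies against 152 and 155 CPM in cytosol, and 48.3 and 48.5 CPM in HEL P-bodies against 24.2 and 24.0 CPM in cytosol. MED13L was also higher in P-bodies, by 0.44 ± 0.0553 on the log2 scale in MOLM-13 and by 1.00 ± 0.105 in HEL. In MOLM-13 the value of MED13 was -0.0952 and not called once the trend of change on GC content and length was removed, and that of MED13L was -0.00159 with scaling by library totals.

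MED12L, the paralog of MED12, had 75.4 and 64.6 CPM in HEL P-bodies, against 33.5 and 37.1 CPM in HEL cytosol. It was higher by log2 0.99 ± 0.107 (SE, edgeR adjusted p = 1.72e-06) there, where MED12 was lower. In MOLM-13 it had only 4 and 3 counts in P-bodies and 2 and 7 counts in cytosol, and it was left out of that test. The first 60 coding bases of both genes are printed because the paralogs are alike there. Capitals again mark G or C at the third codon positions.

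MED12: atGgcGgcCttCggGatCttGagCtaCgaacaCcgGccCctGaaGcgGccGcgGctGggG
MED12L: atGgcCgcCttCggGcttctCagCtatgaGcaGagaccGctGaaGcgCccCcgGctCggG

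MED12L lies at chr3:151085697-151437072 on the plus strand. The start of MED12L matched that of MED12 at 46 of 60 bases, and 11 of the 14 mismatches fell at the third codon positions. None of the 50-base windows of the MED12L transcript occurred in that of MED12, so an error-free read of that length would not match both. Over its whole coding sequence MED12L had 50.3% G or C at the third positions, against 62.1% in MED12.

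The partners of these subunits in the kinase module, which were listed beside the members, were CDK8, its paralog CDK19 and cyclin C (CCNC). CDK19 had 172 and 168 CPM in MOLM-13 P-bodies against 76.6 and 75 CPM in cytosol, and 37.9 and 34.6 CPM in HEL P-bodies against 22.3 and 20.5 CPM in cytosol. It was higher by 1.16 ± 0.0638 on the log2 scale in MOLM-13 and by 0.76 ± 0.117 in HEL. CCNC was higher as well, by 0.82 in MOLM-13 and 0.83 in HEL on the log2 scale. CDK8 was called in neither line, with log2 changes of 0.17 ± 0.147 in MOLM-13 and 0.10 ± 0.141 in HEL. Within the module, MED12 was therefore the only one of the 7 genes listed that was called lower in either line, while CDK8 was called in neither and MED12L was tested in HEL alone.

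**Figure D2:**
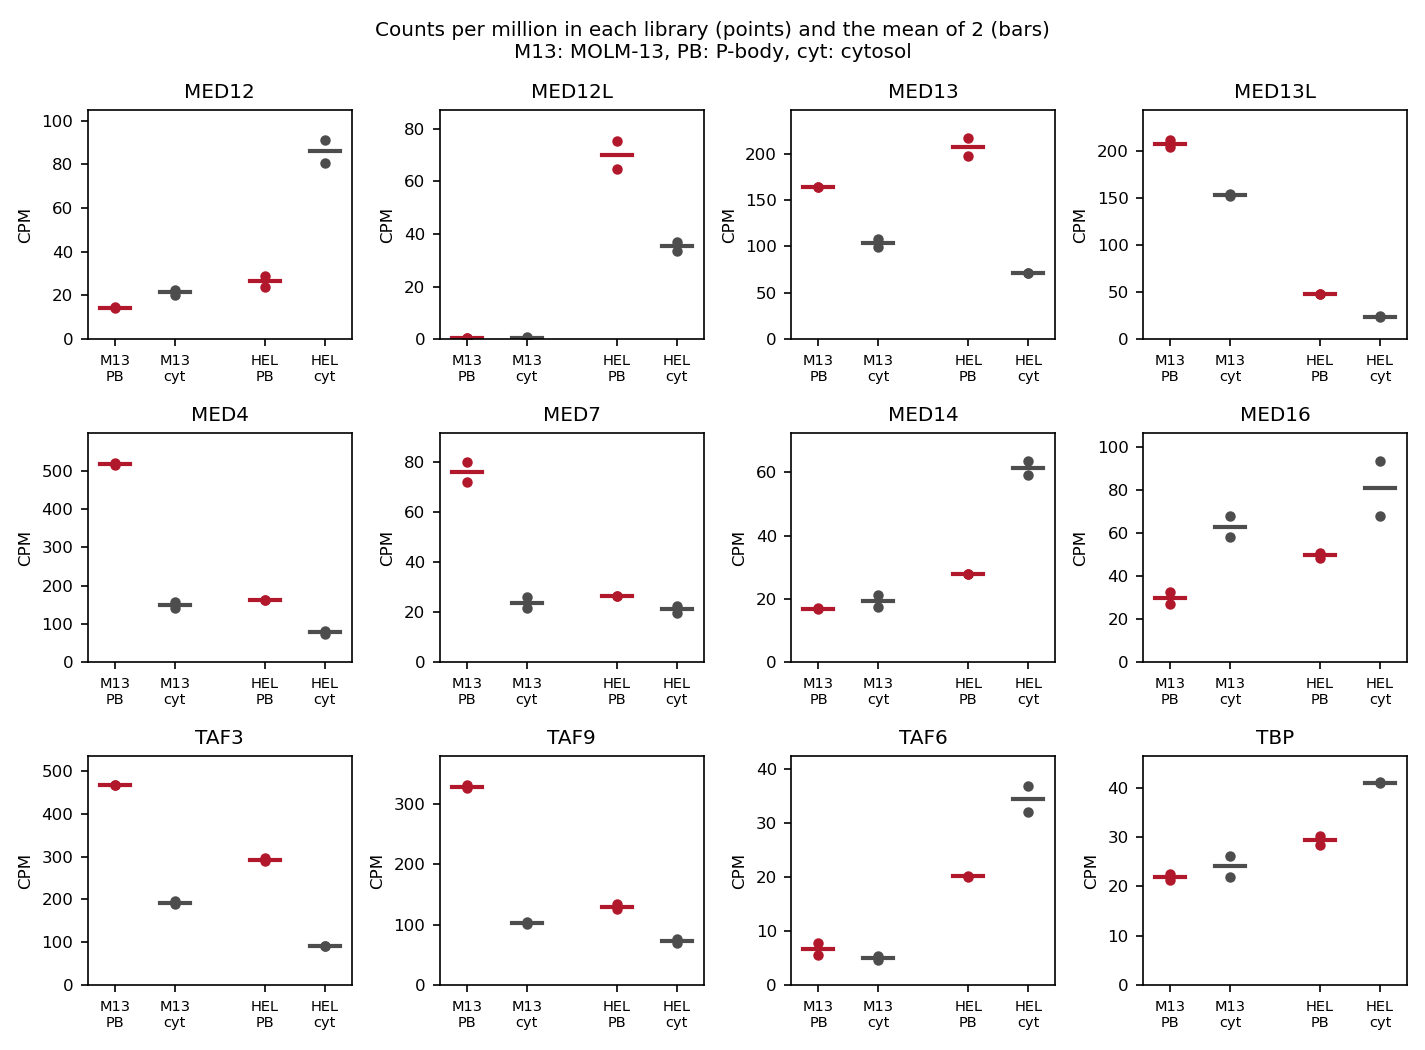
CPM of 12 named members in each library (points) with the mean of the 2 libraries of a group (bars), MOLM-13 left and HEL right in each panel, P-body before cytosol. The scales differ between panels and all start at 0. MED4 stands at 521 and 514 CPM in MOLM-13 P-bodies, against 157 and 142 CPM in MOLM-13 cytosol.

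The middle module is where Mediator meets the kinase module and the polymerase. It had 3 of 9 subunits higher and 1 lower in MOLM-13, and 4 higher and 1 lower in HEL. Over all genes, 32.4% were called higher and 28.5% lower in MOLM-13, and 27.5% and 27.1% in HEL. MED4, a core subunit of the module, had 521 and 514 CPM in MOLM-13 P-bodies, against 157 and 142 CPM in MOLM-13 cytosol. It had 162 and 163 CPM in HEL P-bodies, against 80.8 and 74.7 CPM in HEL cytosol. The log2 change of 1.79 ± 0.0536 (SE, edgeR adjusted p = 2.11e-19) in MOLM-13 was the highest of any member there, and HEL gave 1.07 ± 0.0813 (edgeR adjusted p = 3.4e-08). With the GC and length trend removed the HEL value was 0.19 and not called (edgeR adjusted p = 0.0696).

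MED7, which forms the hinge of the middle module with MED21, had 80.2 and 72.0 CPM in MOLM-13 P-bodies, against 21.5 and 26.1 CPM in MOLM-13 cytosol. It had 26.3 and 26.4 CPM in HEL P-bodies, against 22.3 and 19.8 CPM in HEL cytosol. The change was 1.67 ± 0.102 on the log2 scale in MOLM-13 and 0.33 ± 0.122 in HEL (edgeR adjusted p = 0.0356). The HEL call was lost without P-body replicate 1 (0.33) and without cytosol replicate 2 (0.24). Once the GC and length trend was removed, HEL called MED7 in the opposite direction, lower, at -0.32 (edgeR adjusted p = 0.0443). With scaling by library totals the HEL value was -0.000434. MED21 was called in HEL alone, at 0.35 ± 0.101, and lost that call without cytosol replicate 2 (0.30, edgeR adjusted p = 0.0535).

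MED1, the subunit that nuclear receptors bind, had 220 and 219 CPM in MOLM-13 P-bodies, against 101 and 102 CPM in MOLM-13 cytosol. It had 190 and 162 CPM in HEL P-bodies, against 70.3 and 73.9 CPM in HEL cytosol. The log2 change was 1.118 ± 0.058 in MOLM-13 and 1.29 ± 0.0912 in HEL. The interaction term called the difference between the lines (-0.36, edgeR adjusted p = 0.0242), and this call was lost with RLE size factors (-0.29) and when any library other than HEL P-body replicate 2 was left out. MED9 was lower in HEL by log2 -0.38 ± 0.136, a call lost without P-body replicate 1 (-0.27) and without cytosol replicate 2 (-0.36). MED19 was lower in MOLM-13 by -0.27 ± 0.0889, a call lost without P-body replicate 2 (-0.21) and without cytosol replicate 1 (-0.22). MED10, MED26, which recruits elongation factors, and MED31 were called in neither line, with log2 changes between -0.40 and 0.13.

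MED14 is the backbone that joins head, middle and tail, and its mRNA differed between the lines. It had 16.7 and 17.2 CPM in MOLM-13 P-bodies, against 17.3 and 21.2 CPM in MOLM-13 cytosol. It had 28.0 and 27.9 CPM in HEL P-bodies, against 59.1 and 63.5 CPM in HEL cytosol. HEL called it lower, at log2 -1.13 ± 0.101 (SE, edgeR adjusted p = 1.99e-07), and MOLM-13 did not call it, at -0.19 ± 0.143 (edgeR adjusted p = 0.249). With the GC and length trend removed MOLM-13 also called it lower, at -0.82.

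The head module, the part that grips the polymerase, gave log2 changes from -0.82 to 0.68 in MOLM-13 and from -0.64 to 0.19 in HEL. In MOLM-13 MED6 (0.68 ± 0.107) and MED8 (0.36 ± 0.108) were higher on the log2 scale, and MED11, MED18 and MED22 were lower. In HEL no head subunit was higher, and MED18, MED20 and MED22 were lower. MED22 had 12.2 and 10.7 CPM in MOLM-13 P-bodies, against 21.8 and 18.9 CPM in MOLM-13 cytosol. It had 21.1 and 21.8 CPM in HEL P-bodies, against 33.1 and 34.0 CPM in HEL cytosol. The log2 change of MED22 was -0.82 ± 0.153 in MOLM-13 and -0.64 ± 0.114 in HEL, and no head subunit was lower than this in either line.

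The calls of MED6 and MED8 were kept when each library was left out in turn, and those of MED11, MED18 and MED20 were not. MED18 was lower by log2 -0.33 ± 0.122 in MOLM-13 and by -0.41 ± 0.136 in HEL. It lost the MOLM-13 call without P-body replicate 2 (-0.21) or cytosol replicate 2 (-0.16), and the HEL call without P-body replicate 1 (-0.24). MED20, its partner in the movable part of the head, was lower by -0.40 ± 0.109 in HEL and lost that call without P-body replicate 2 (-0.32). MED11, the partner of MED22, was lower by -0.45 ± 0.161 in MOLM-13 and lost that call without P-body replicate 1 (-0.25), cytosol replicate 1 (-0.45) or cytosol replicate 2 (-0.40). Of the head-tail connection, MED29 was lower in both lines, by -0.49 ± 0.102 in MOLM-13 and -0.74 ± 0.098 in HEL, and MED27, MED28 and MED30 were called in neither.

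The tail, which activators bind, had 4 of 5 subunits lower in P-bodies in each line, and the same subunit, MED23, higher in each. Over all genes, 28.5% were called lower in MOLM-13 and 27.1% in HEL, and these 5 subunits were not tested as a set. MED15, the target of lipid regulators of the SREBP family, had 42.8 and 42.2 CPM in MOLM-13 P-bodies, against 69.5 and 68.8 CPM in MOLM-13 cytosol. It had 47.7 and 49.8 CPM in HEL P-bodies, against 83.2 and 102 CPM in HEL cytosol. The groups did not overlap, and the log2 change was -0.70 ± 0.0831 (SE, edgeR adjusted p = 7.14e-08) in MOLM-13 and -0.93 ± 0.104 (edgeR adjusted p = 2.47e-06) in HEL.

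MED16, which sits beside MED23 and MED24 in the tail, had 26.9 and 32.8 CPM in MOLM-13 P-bodies, against 68.0 and 58.2 CPM in MOLM-13 cytosol. It had 50.9 and 48.7 CPM in HEL P-bodies, against 68.2 and 93.6 CPM in HEL cytosol. It was lower by log2 -1.08 ± 0.105 in MOLM-13, the lowest of any member there, and by -0.70 ± 0.125 in HEL. MED24 was lower by -0.30 ± 0.105 in MOLM-13 and by -0.45 ± 0.0997 in HEL, and MED25 was lower by -0.54 ± 0.124 in MOLM-13 and by -0.83 ± 0.127 in HEL. MED24 lost its MOLM-13 call without P-body replicate 2 (-0.23), cytosol replicate 1 (-0.30) or cytosol replicate 2 (-0.25), and its HEL call without P-body replicate 2 (-0.30). MED23, which relays signals of the transcription factor ELK1, was higher by 1.11 ± 0.0889 in MOLM-13 and by 0.45 ± 0.105 in HEL.

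With the GC and length trend removed, MED23 in HEL (-0.0177), MED24 in MOLM-13 (0.0433) and HEL (0.024) and MED25 in MOLM-13 (0.211) changed sign, and none of these was called. MED16 in HEL (-0.0655) and MED25 in HEL (-0.20) kept their sign and lost their calls. MED15 and, in MOLM-13, MED16 and MED23 kept their calls.

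Of the 14 subunits of TFIID, 7 were higher and 1 was lower in P-bodies of MOLM-13, with a median log2 change of 0.40. In HEL 8 were higher and 3 lower, with a median of 0.37. As shares these were 50% higher and 7.14% lower in MOLM-13, and 57.1% and 21.4% in HEL. Over all genes tested, 32.4% were called higher and 28.5% lower in MOLM-13, and 27.5% and 27.1% in HEL. When libraries were scaled by their totals, TFIID had 6 higher and 5 lower in MOLM-13 (median -0.0382) and 5 higher and 5 lower in HEL (median 0.0404). The median of all genes moved too, from -0.0369 to -0.475 in MOLM-13 and from -0.0617 to -0.387 in HEL. The TFIID counts and medians thus depended on the scaling, while the TFIID median lay above that of all genes under both. The 30 Mediator subunits had 8 higher and 10 lower in MOLM-13 (29 tested, median -0.0802) and 8 higher and 11 lower in HEL (median -0.053). These were 27.6% higher and 34.5% lower in MOLM-13, and 26.7% and 36.7% in HEL. With library totals the Mediator counts were 6 higher and 16 lower in MOLM-13, and 5 higher and 17 lower in HEL. The Mediator medians were then -0.519 in MOLM-13 and -0.379 in HEL, against -0.475 and -0.387 over all genes. The difference between the complexes was not tested, since subunits are not replicates.

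TBP, the DNA-binding subunit, was not among the TFIID mRNAs that were higher. It had 22.6 and 21.3 CPM in MOLM-13 P-bodies, against 22.0 and 26.1 CPM in MOLM-13 cytosol, and these ranges overlapped. It had 30.3 and 28.4 CPM in HEL P-bodies, against 40.9 and 41.2 CPM in HEL cytosol. MOLM-13 did not call it (log2 -0.14 ± 0.128, edgeR adjusted p = 0.364) and HEL called it lower (-0.48 ± 0.106, edgeR adjusted p = 0.00128).

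TAF1, TAF2, TAF3 and TAF7 were among the TFIID mRNAs that were higher in both lines. TAF3, which binds methylated histone tails, had 467 and 467 CPM in MOLM-13 P-bodies, against 189 and 196 CPM in MOLM-13 cytosol. It had 297 and 289 CPM in HEL P-bodies, against 90.0 and 92.0 CPM in HEL cytosol. Its log2 change was 1.28 ± 0.0492 (SE, edgeR adjusted p = 2.84e-17) in MOLM-13 and 1.69 ± 0.0743 (edgeR adjusted p = 1.17e-10) in HEL, where it was the highest of all members.

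TAF1, the largest subunit, had 135 and 136 CPM in MOLM-13 P-bodies, against 66.1 and 65.1 CPM in MOLM-13 cytosol. It had 75.2 and 63.7 CPM in HEL P-bodies, against 29.3 and 34.8 CPM in HEL cytosol. TAF7, which binds TAF1 and restrains it, had 397 and 410 CPM in MOLM-13 P-bodies against 265 and 275 CPM in cytosol, and 99.7 and 93.4 CPM in HEL P-bodies against 69.7 and 66.8 CPM in cytosol. TAF1 was higher by log2 1.05 ± 0.0676 in MOLM-13 and 1.115 ± 0.116 in HEL, and TAF7 by 0.58 ± 0.0484 in MOLM-13 and 0.50 ± 0.086 in HEL. TAF2, a promoter-contacting subunit, was higher by 0.97 ± 0.0525 in MOLM-13 and 0.70 ± 0.081 in HEL.

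Partners within histone-fold pairs were set side by side. TAF9 pairs with TAF6 in TFIID. It had 326 and 332 CPM in MOLM-13 P-bodies, against 101 and 105 CPM in MOLM-13 cytosol, and 134 and 126 CPM in HEL P-bodies, against 76.7 and 70.0 CPM in HEL cytosol. TAF6 had 5.63 and 7.83 CPM in MOLM-13 P-bodies, against 5.46 and 4.6 CPM in MOLM-13 cytosol, and 20.3 and 20 CPM in HEL P-bodies, against 32.2 and 37.0 CPM in HEL cytosol.

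TAF9 was higher in both lines, by log2 1.68 ± 0.0556 in MOLM-13 and 0.83 ± 0.0858 in HEL. TAF6 was lower in HEL, at -0.78 ± 0.12, and was not called in MOLM-13, at 0.42 ± 0.243 from 37 to 66 counts per library. Without MOLM-13 P-body replicate 1 it was called higher there, at 0.66. Of the exonic bases of TAF9, 27.2% overlapped AK6 or RAD17, and of those of TAF6, 28.3% overlapped AP4M1 or CNPY4, so reads of these neighbours may be counted with either gene.

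TAF9B, a close paralog of TAF9, had 7.32 and 9.25 CPM in MOLM-13 P-bodies, against 8.12 and 8.96 CPM in MOLM-13 cytosol, and 14.3 and 15 CPM in HEL P-bodies, against 17.0 and 16.4 CPM in HEL cytosol. Its log2 change was -0.0547 ± 0.201 in MOLM-13 and -0.19 ± 0.134 in HEL, called in neither. The first 60 coding bases of both are printed to show how near the genes are in sequence, with G or C at the third codon positions in capitals.

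TAF9: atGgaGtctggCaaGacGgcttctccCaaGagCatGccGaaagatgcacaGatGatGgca
TAF9B: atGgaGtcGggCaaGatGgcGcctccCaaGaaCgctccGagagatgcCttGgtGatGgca

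TAF9 lies at chr5:69364743-69370013 and TAF9B at chrX:78129748-78139706, both on the minus strand. The windows matched at 47 of 60 bases, with 4 of the 13 mismatches at the third positions, and none of the 50-base windows of the TAF9B transcript occurred in that of TAF9. G or C content at the third positions was alike over the whole coding sequences, at 33.2% in TAF9 and 34.9% in TAF9B. With the GC and length trend removed, TAF9B was called lower, at -0.87 in MOLM-13 and -1.02 in HEL.

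TAF10 pairs with TAF3 or TAF8 and was the only TFIID subunit called lower in both lines, on few reads. It had 2.02 and 2.25 CPM in MOLM-13 P-bodies, against 3.39 and 4.36 CPM in MOLM-13 cytosol, and 0.502 and 0.521 CPM in HEL P-bodies, against 1.43 and 1.56 CPM in HEL cytosol. The counts behind these values were 19 and 19 in MOLM-13 P-bodies, 23 and 36 in MOLM-13 cytosol, 8 and 8 in HEL P-bodies and 21 and 27 in HEL cytosol. The log2 change was -0.87 ± 0.314 (SE, edgeR adjusted p = 0.0194) in MOLM-13 and -1.53 ± 0.427 (edgeR adjusted p = 0.00704) in HEL.

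DESeq2 called TAF10 in neither line. The MOLM-13 call was also lost without P-body replicate 1 (-0.78) or cytosol replicate 2 (-0.65), and the HEL call without cytosol replicate 2 (-1.47). A share of 51.2% of the exonic bases of TAF10 overlapped other genes, ILK among them. TAF8 was called in neither line, with log2 changes of -0.0327 ± 0.11 in MOLM-13 and -0.10 ± 0.107 in HEL.

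TAF13 pairs with TAF11. TAF13 had 25.6 and 22.1 CPM in MOLM-13 P-bodies, against 17.4 and 19.1 CPM in MOLM-13 cytosol, and 17.6 and 19.8 CPM in HEL P-bodies, against 8.83 and 8.01 CPM in HEL cytosol. It was higher by log2 0.38 ± 0.134 in MOLM-13 and 1.15 ± 0.149 in HEL. The MOLM-13 call was lost without P-body replicate 1 (0.28) or cytosol replicate 1 (0.35), and the value was -0.0573 with scaling by library totals and -0.21 with the GC and length trend removed, not called in either. TAF11 was called in HEL alone, at 0.27 ± 0.0936, and lost that call without P-body replicate 1 (0.27) or cytosol replicate 1 (0.22).

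TAF12 pairs with TAF4 or TAF4B. TAF12 was higher by log2 1.05 ± 0.0842 in MOLM-13 and 0.46 ± 0.0912 in HEL. TAF4 had 13.7 and 13.3 CPM in MOLM-13 P-bodies against 16.1 and 13 CPM in cytosol, and 4.64 and 6.51 CPM in HEL P-bodies against 5.64 and 6.05 CPM in cytosol. The groups overlapped in both lines and neither called TAF4. TAF4B, its cell-type-restricted paralog, had 23.1 and 19.0 CPM in MOLM-13 P-bodies against 20.4 and 19.6 CPM in cytosol, which overlap. In HEL it had 71.4 and 62.8 CPM in P-bodies against 43.6 and 39.5 CPM in cytosol, and it was higher there by 0.69 ± 0.103 (edgeR adjusted p = 4.19e-05).

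TAF5, whose repeats hold the lobes of TFIID together, had 35.5 and 37.4 CPM in MOLM-13 P-bodies against 32.6 and 29.9 CPM in cytosol, and 24.8 and 25.6 CPM in HEL P-bodies against 28.0 and 26.9 CPM in cytosol. It was called in neither line. Without MOLM-13 cytosol replicate 1 it was called higher in MOLM-13, at log2 0.31, against 0.22 ± 0.105 with all libraries. Its paralog TAF5L, which takes its place in SAGA, had 18.7 and 17.8 CPM in MOLM-13 P-bodies against 10.8 and 11.5 CPM in cytosol, and 57.2 and 53.6 CPM in HEL P-bodies against 34.9 and 31.5 CPM in cytosol. TAF5L was higher in both lines, by 0.71 ± 0.154 in MOLM-13 and 0.74 ± 0.104 in HEL. TAF6L, the SAGA counterpart of TAF6, had 13.2 and 14.6 CPM in MOLM-13 P-bodies against 15.8 and 16.6 CPM in cytosol, and 14.0 and 11.6 CPM in HEL P-bodies against 14.0 and 14.5 CPM in cytosol, and was called in neither.

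TAF1B belongs to the RNA polymerase I factor SL1 and not to TFIID. It had 124 and 112 CPM in MOLM-13 P-bodies, against 39.5 and 43.9 CPM in MOLM-13 cytosol, and 115 and 101 CPM in HEL P-bodies, against 53.6 and 48.5 CPM in HEL cytosol. It was higher by log2 1.497 ± 0.0813 in MOLM-13 and 1.08 ± 0.0959 in HEL. TAF15, an RNA-binding protein of the FET family, was higher in MOLM-13 alone, at 0.32 ± 0.131, and lost that call without P-body replicate 1 (0.18) or cytosol replicate 2 (0.13). TAF1L had 3 and 2 counts in MOLM-13 P-bodies, 1 and 2 in MOLM-13 cytosol, 3 and 2 in HEL P-bodies and 0 and 1 in HEL cytosol. A share of 15.3% of the 50-base windows of TAF1L occurred in TAF1, so these few reads may come from TAF1. TAF7L had 10 and 1 counts in MOLM-13 P-bodies, 1 and 5 in MOLM-13 cytosol, 3 and 6 in HEL P-bodies and 0 and 2 in HEL cytosol.

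Ratios of partner subunits within a library do not depend on how libraries are scaled. A ratio of counts also carries the lengths of both transcripts, so only its change between fractions was read. MED13 had 11.6 and 10.9 counts for each MED12 count in MOLM-13 P-bodies, against 4.37 and 5.30 in MOLM-13 cytosol. In HEL the ratio was 7.49 and 8.26 in P-bodies, against 0.881 and 0.784 in cytosol, a mean ratio 9.47 times that of cytosol. With 2 libraries against 2, a two-sided exact permutation test cannot go below p = 0.333, so no ratio could be called alone.

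The TAF9 to TAF6 ratio was 57.9 and 42.4 in MOLM-13 P-bodies, against 18.4 and 22.8 in MOLM-13 cytosol, and 6.60 and 6.29 in HEL P-bodies, against 2.38 and 1.89 in HEL cytosol. The TAF12 to TAF4 ratio was 8.55 and 8.29 in MOLM-13 P-bodies against 3.02 and 4.68 in cytosol, and 15.5 and 12.0 in HEL P-bodies against 9.54 and 9.09 in cytosol. The TAF13 to TAF11 ratio was 0.272 and 0.250 in MOLM-13 P-bodies against 0.175 and 0.202 in cytosol, and 0.293 and 0.333 in HEL P-bodies against 0.184 and 0.157 in cytosol. In each of these pairs both P-body libraries lay above both cytosolic ones. MED28 to MED30, by contrast, gave 0.706 and 0.602 in MOLM-13 P-bodies against 0.726 and 0.642 in cytosol. In HEL it gave 3.07 and 2.55 in P-bodies against 2.59 and 2.44 in cytosol, so the fractions overlapped in both lines. They also overlapped in HEL for MED7 to MED21 and MED18 to MED20. Of all partner and paralog pairs listed, P-bodies lay above cytosol in 10, below in 4 and overlapped it in 4 in MOLM-13. In HEL these counts were 13, 2 and 3. The side depends on which gene is written first, and no such share over other gene pairs is given here.

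Ratios of paralogs were set side by side in the same way. MED12L to MED12 was 2.60 and 2.70 in HEL P-bodies, against 0.414 and 0.407 in HEL cytosol. In MOLM-13 it was 0.0301 and 0.0238 in P-bodies against 0.0130 and 0.0417 in cytosol, which overlap. TAF9B to TAF9 was 0.0225 and 0.0279 in MOLM-13 P-bodies against 0.0806 and 0.0855 in cytosol, and 0.107 and 0.119 in HEL P-bodies against 0.221 and 0.235 in cytosol. TAF6L to TAF6 was 2.34 and 1.86 in MOLM-13 P-bodies against 2.89 and 3.61 in cytosol, and 0.691 and 0.581 in HEL P-bodies against 0.435 and 0.393 in cytosol, so P-body libraries lay below cytosolic ones in MOLM-13 and above them in HEL.

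TAF4B to TAF4 was 1.69 and 1.43 in MOLM-13 P-bodies against 1.27 and 1.51 in cytosol, which overlap, and 15.4 and 9.65 in HEL P-bodies against 7.73 and 6.52 in cytosol. MED13L to MED13 was 1.29 and 1.25 in MOLM-13 P-bodies against 1.53 and 1.44 in cytosol, and 0.223 and 0.246 in HEL P-bodies against 0.341 and 0.335 in cytosol, below cytosol in both lines. TAF5L to TAF5 was 0.527 and 0.476 in MOLM-13 P-bodies against 0.330 and 0.385 in cytosol, and 2.3 and 2.09 in HEL P-bodies against 1.25 and 1.17 in cytosol, above cytosol in both lines. Of partners in the middle module, MED4 to MED9 was 62.2 and 81.8 in MOLM-13 P-bodies against 15.9 and 17.8 in cytosol, and 11.7 and 9.98 in HEL P-bodies against 4.18 and 3.73 in cytosol. In both lines P-body libraries lay below cytosolic ones for TAF9B to TAF9 and above them for MED4 to MED9.

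**Figure D3:**
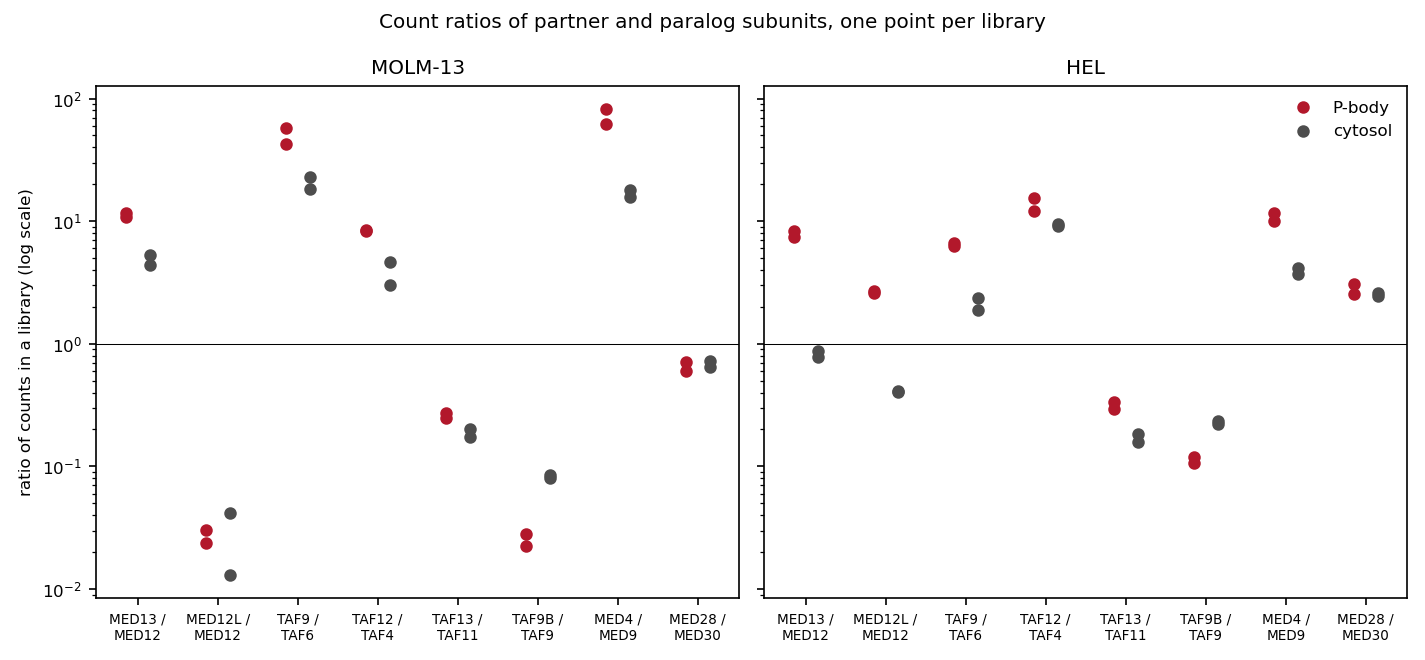
Count ratios of 8 partner or paralog pairs in each library, on a log axis, for MOLM-13 (left) and HEL (right), with P-body libraries left of cytosolic ones. The P-body points of MED13 to MED12 in HEL, at 7.49 and 8.26, lie on the other side of 1 from the cytosolic points, at 0.881 and 0.784.

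Levels of different members were compared per length, as CPM per kilobase of the transcript with the longest coding sequence. In MOLM-13 P-bodies MED4 (256 CPM per kilobase), TAF9 (225) and TAF7 (173) stood highest, against levels of 74.0, 70.3 and 116 for the same genes in MOLM-13 cytosol. In HEL P-bodies MED28 (99.0 CPM per kilobase), TAF9 (89.0), MED21 (84.4) and MED4 (80.5) stood highest, against 104, 50.2, 66.1 and 38.4 for the same genes in HEL cytosol. MED28 was thus near the top of the HEL order without a call, and 32.1% of its exonic bases overlapped FAM184B. TAF10 stood at 1.76 CPM per kilobase in MOLM-13 P-bodies and 0.421 in HEL P-bodies, against 3.19 in MOLM-13 cytosol and 1.23 in HEL cytosol. No differences between genes were tested, and the transcripts used by these cells may have other lengths.

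The size of the change differed between the lines for 17 of the 50 members tested by the interaction term of a fit of all 8 libraries (MOLM-13 minus HEL). Of these, 8 were higher in MOLM-13 than in HEL and 9 lower. Over all 17477 genes in that test, 9.15% were called higher and 13% lower, 22.2% in either direction, with a median of -0.112. The lowest p-values belonged to MED13 (-1.07 ± 0.107, edgeR adjusted p = 3.84e-07), MED13L (-0.76 ± 0.11, edgeR adjusted p = 2.79e-05) and MED7 (1.15 ± 0.171, edgeR adjusted p = 3.71e-05). The P-body excess of both paralogs of the tethering subunit was thus smaller in MOLM-13 than in HEL, and that of MED7 was greater in MOLM-13. Since this fit scales all 8 libraries together, the members' values lay below the difference of the log2 changes of the separate fits. With scaling within each line, the median of all genes was 0.0766. The lower calls of MED1 (-0.17), MED16 (-0.377) and MED19 (-0.288) were then lost. MED6 (0.494), MED8 (0.378) and TAF1B (0.418) were then called higher. MED12, MED4, TAF9 and MED14 were also called higher in MOLM-13, at 0.95, 0.54, 0.66 and 0.75. With MED13, MED13L and MED7 these 7 were called in the same direction under every alternative run for that test. The alternatives run for it did not include the removal of the GC and length trend, DESeq2 or the setting with no filter.

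The count of such calls moved with single libraries. Leaving out HEL P-body replicate 1 gave 15 higher and 4 lower, with the median of all genes at 0.192. Leaving out HEL cytosol replicate 1 gave 12 higher and 4 lower, with the median at 0.165. Leaving out HEL cytosol replicate 2 gave 14 higher and 4 lower, with the median at 0.138. Scaling within each line, chosen after seeing the data, gave 11 higher and 6 lower with the median at 0.0766.

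**Figure D4:**
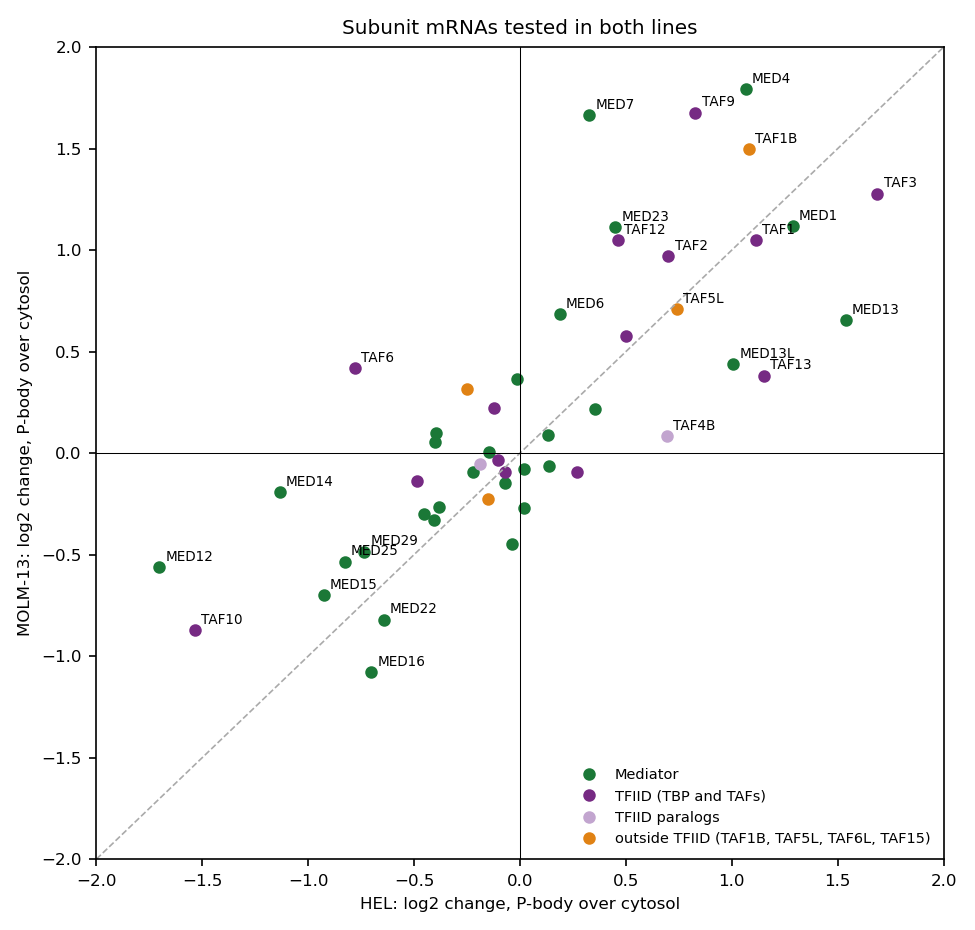
Log2 change in P-bodies over cytosol of the 49 members tested in both lines, MOLM-13 on the vertical axis and HEL on the horizontal, with the line of equal change dashed. MED7 lies at 1.67 in MOLM-13 against 0.33 in HEL, and MED13 at 0.66 in MOLM-13 against 1.54 in HEL.

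Across the 49 members tested in both lines, the log2 changes of the lines had a Pearson correlation of 0.774 and a Spearman correlation of 0.808. Over all 11984 genes tested in both lines they were 0.709 and 0.676. The lines share no library, but genes are not independent and share base composition, and the values are given as a description.

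Other genes of the initiation machinery were also split. Of 54 genes listed, 52 were tested, and 24 were higher and 17 lower in P-bodies of MOLM-13, against 32.4% and 28.5% of all genes. In HEL 21 were higher and 10 lower, against 27.5% and 27.1% of all genes. Of 16 tested subunits of the general factors TFIIA, TFIIB, TFIIE, TFIIF and TFIIH, 12 were higher and 2 lower in MOLM-13, and 8 higher and 3 lower in HEL. GTF2H1, a core subunit of TFIIH, had 136 and 118 CPM in MOLM-13 P-bodies against 44.1 and 49.5 CPM in cytosol, and 179 and 180 CPM in HEL P-bodies against 80 and 78.5 CPM in cytosol. It was higher by log2 1.44 ± 0.0834 in MOLM-13 and 1.18 ± 0.0779 in HEL.

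RNA polymerase II was split between its catalytic subunits. POLR2B, the second-largest subunit, had 309 and 312 CPM in MOLM-13 P-bodies against 100 and 95.1 CPM in cytosol, and 336 and 314 CPM in HEL P-bodies against 258 and 237 CPM in cytosol. It was higher by log2 1.67 ± 0.0567 in MOLM-13 and 0.39 ± 0.0744 in HEL. POLR2A, the largest subunit, was named after its values were seen. It had 65.7 and 63.4 CPM in MOLM-13 P-bodies against 93.4 and 98.4 CPM in cytosol, and 67.7 and 72.8 CPM in HEL P-bodies against 206 and 211 CPM in cytosol. It was lower by -0.57 ± 0.0729 in MOLM-13 and -1.57 ± 0.0804 in HEL. Of the 12 polymerase subunits, 2 were higher and 7 lower in MOLM-13, and 2 higher and 3 lower in HEL.

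BTAF1, which removes TBP from DNA, had 245 and 259 CPM in MOLM-13 P-bodies against 100 and 99 CPM in cytosol, and 159 and 144 CPM in HEL P-bodies against 132 and 131 CPM in cytosol. BTAF1 was higher by log2 1.34 ± 0.0586 in MOLM-13 and 0.20 ± 0.0797 in HEL, where its p was close to the threshold (edgeR adjusted p = 0.0459). Of the 4 tested relatives and regulators of TBP, 2 were higher and 1 lower in MOLM-13, and 3 higher and none lower in HEL. The lower one was DRAP1, at -0.98 in MOLM-13. TAF1A, a partner of TAF1B in SL1, had 12.5 and 15.3 CPM in MOLM-13 P-bodies against 7.08 and 9.08 CPM in cytosol, and 38 and 37.6 CPM in HEL P-bodies against 21.7 and 20.6 CPM in cytosol. TAF1A was higher by 0.76 ± 0.187 in MOLM-13 and 0.84 ± 0.112 in HEL. Of the 3 SL1 partners, 1 was higher and 1 lower in MOLM-13, and 2 were higher and 1 lower in HEL. TAF1C was lower in HEL (-0.75) and not called in MOLM-13. TAF1D was lower in MOLM-13 (-0.15) and higher in HEL (0.63). TADA1, a partner of TAF5L and TAF6L in SAGA, had 35.9 and 29.5 CPM in MOLM-13 P-bodies against 10.2 and 13 CPM in cytosol, and 58.3 and 51.9 CPM in HEL P-bodies against 40.4 and 36.7 CPM in cytosol. TADA1 was higher by 1.49 ± 0.147 in MOLM-13 and 0.52 ± 0.105 in HEL. Of the 14 SAGA partners, 5 were higher and 6 lower in MOLM-13, and 4 higher and 3 lower in HEL. These small counts stand beside all-gene shares of 32.4% higher and 28.5% lower in MOLM-13, and 27.5% and 27.1% in HEL.

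The members' changes followed GC content, given first for the third codon positions. The 18 members called higher in MOLM-13 had a median of 40.8% and the 11 called lower a median of 73.1%. In HEL the 19 called higher had a median of 42.2% and the 14 called lower a median of 72.1%. The Pearson correlation of log2 change with this content was -0.677 over 49 members in MOLM-13 and -0.62 over 50 members in HEL. Over all coding genes tested it was -0.698 in MOLM-13 (11236 genes) and -0.604 in HEL (11944 genes), so the members followed the relation of all genes. The third positions did not stand out from the rest of the mRNA. Over the members, GC content of the whole transcript correlated at -0.65 in MOLM-13 and -0.627 in HEL. That of the whole coding sequence gave -0.674 and -0.635, and that of the 3' untranslated region -0.604 and -0.504. Transcript length correlated weakly, at 0.129 in MOLM-13 and 0.161 in HEL over the members.

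**Figure D5:**
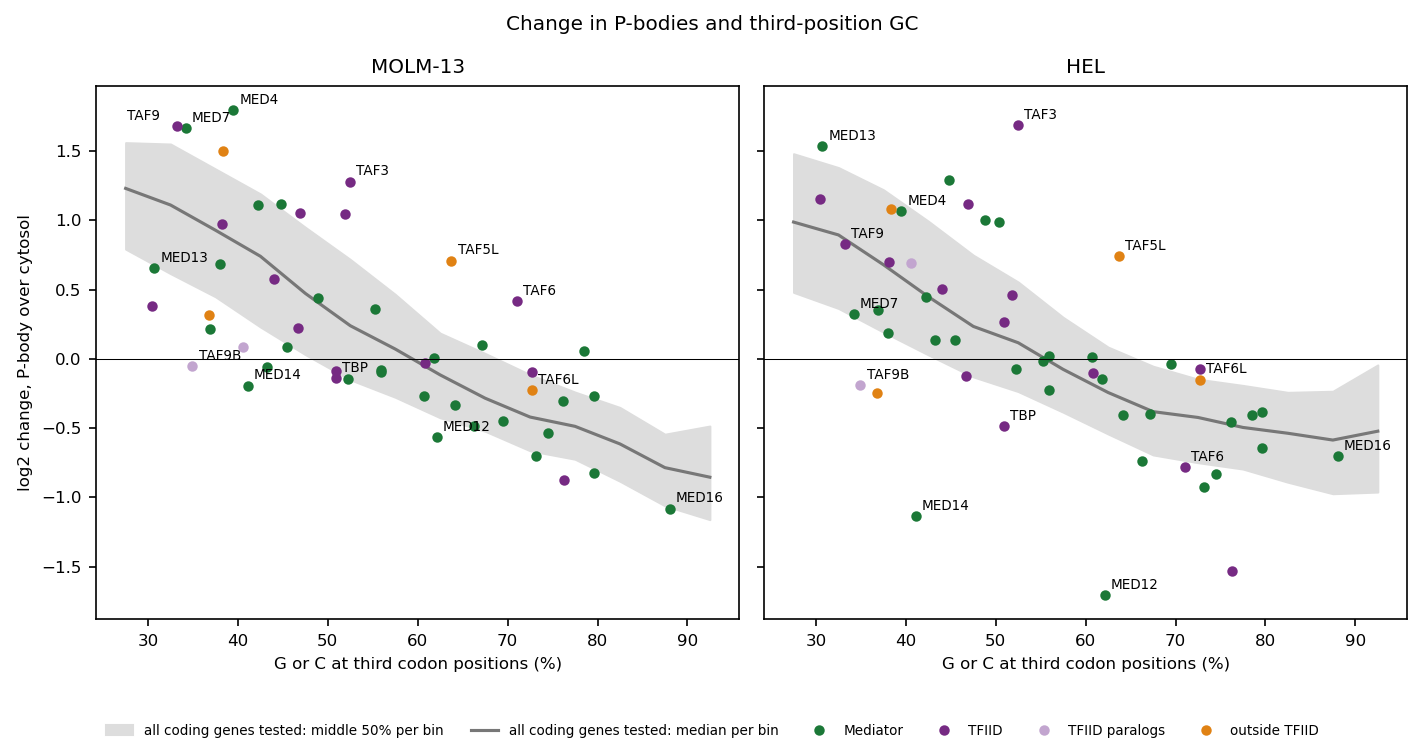
Log2 change in P-bodies over cytosol against the share of G or C at the third codon positions (%), for the members (points) and for all coding genes tested (line, median in bins of 5%; band, the middle 50%), MOLM-13 left and HEL right. MED16, at 88.0%, stood at -1.08 in MOLM-13 and -0.70 in HEL, and MED13, at 30.7%, at 0.66 in MOLM-13 and 1.54 in HEL.

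Some members departed from that relation. MED14, with 41.1% G or C at the third positions, was lower in HEL, and TAF9B, with 34.9%, was called in neither line. TAF5L, with 63.7%, was higher in both lines. When a smooth trend of change on GC content and transcript length was removed, which took up 40.7% of the variance over genes in MOLM-13 and 36.4% in HEL, 18 members were called higher and 11 lower in MOLM-13, and 12 higher and 10 lower in HEL. Of those called without the removal, 15 of 18 higher and 5 of 11 lower were kept in MOLM-13, and 11 of 19 higher and 6 of 14 lower in HEL. The kept lower calls were MED15, MED16, MED18, MED22 and MED29 in MOLM-13, and MED12, MED14, MED15, MED20, MED29 and TBP in HEL. TAF3, TAF1, TAF1B, TAF9, TAF12, TAF5L, MED1 and MED13L were the higher calls kept in both lines. The higher calls lost were MED6, MED13 and TAF13 in MOLM-13, and MED4, MED7, MED21, MED23, TAF2, TAF7, TAF11 and TAF13 in HEL. Among these, MED7 was then called lower in HEL, at -0.322. The lower calls lost were MED11, MED12, MED19, MED24, MED25 and TAF10 in MOLM-13, and MED9, MED16, MED18, MED22, MED24, MED25, TAF6 and TAF10 in HEL.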

How the data were processed

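The authors deposited whole-number counts of reads by gene symbol, and each line has its own table. Per the submitters' processing notes, STAR, SAMtools 1.12, DESeq2 and GRCh38 were used. No source used here gives the counter, annotation or strand setting. Of 61544 rows, 1348 carrying 112 repeated symbols (0.0193% to 0.0477% of counts) were left out.

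Fractions were compared in a fit for each line with edgeR 4.0.16 (R 4.3.3), using its quasi-likelihood test, the deposited counts, TMM factors and filterByExpr (smallest count 10). Genes were called at a Benjamini-Hochberg adjusted p below 0.05 over all genes. Lines were compared by the interaction of line and fraction over all 8 libraries. The common biological coefficient of variation (0.0382 in MOLM-13, 0.0781 in HEL) differed between the lines. Replicates differed by more than sampling noise (chi-square per degree of freedom 1.87 to 6.15). Sequences and transcript properties came from GENCODE release 29, in which all 52 members were matched, and 97.0% of genes tested in MOLM-13 and 97.3% in HEL. The GC and length trend was fitted with mgcv 1.9.3. DESeq2 1.42.0 was an alternative. Tests were run on simulated data first.

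Members, lists and modules were chosen with earlier results of these data known. Per-library values were given for the 4 called members with the highest and the 4 with the lowest log2 change in each line, the 3 with the lowest interaction p, TBP and both genes of each paralog pair, and of the other initiation genes for the called gene with the lowest p in each group. Nearly all other members are named by log2 change alone.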

Additional observations from a re-analysis of the deposited data

Results flagged for a closer look

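The change in P-bodies differed between the lines, by the interaction term, for 17 members. All values are MOLM-13 minus HEL on the log2 scale, with edgeR's quasi-likelihood test over all genes. They come from the fit that scales all 8 libraries together, and MED1, MED16 and MED19 were not called with scaling within each line. Higher in MOLM-13 were MED7 (1.15), TAF6 (1.01), MED12 (0.948), MED14 (0.750), TAF9 (0.658), MED4 (0.535), MED23 (0.473) and TAF12 (0.398). Lower in MOLM-13 were MED13 (-1.07), TAF13 (-0.962), TAF4B (-0.804), MED13L (-0.758), TAF3 (-0.599), MED16 (-0.567), TAF11 (-0.552), MED19 (-0.478) and MED1 (-0.361). MED12 and MED14 were lower in HEL P-bodies to a greater degree, and MED7 and TAF9 were higher in MOLM-13 P-bodies to a greater degree.

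Single libraries changed 10 of these calls. Without HEL P-body replicate 1, MED1 (0.0724), MED16 (-0.22), MED19 (-0.214), TAF11 (-0.229) and TAF4B (-0.393) were not called. Without HEL P-body replicate 2, MED19 (-0.437) and MED23 (0.315) were not called. Without HEL cytosol replicate 1, MED1 (-0.0298), MED16 (-0.0625), MED19 (-0.184), TAF11 (-0.209) and TAF3 (-0.286) were not called. Without HEL cytosol replicate 2, MED1 (-0.114), MED19 (-0.187), TAF11 (-0.314), TAF13 (-0.604) and TAF4B (-0.448) were not called.

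Leaving out MOLM-13 libraries ended some of the same calls and those of TAF12 and TAF6. Without P-body replicate 1, MED1 (-0.364), MED16 (-0.423), MED19 (-0.518), MED23 (0.444) and TAF12 (0.357) were not called. Without P-body replicate 2, MED1 (-0.35), MED19 (-0.432), TAF12 (0.448) and TAF6 (0.765) were not called. Without cytosol replicate 1, MED1 (-0.371), MED16 (-0.459), MED19 (-0.463), MED23 (0.38) and TAF12 (0.249) were not called. Without cytosol replicate 2, MED1 (-0.348), MED19 (-0.493) and TAF6 (0.887) were not called.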

How the results depend on the processing

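When libraries were scaled by their totals instead, the median of all genes moved to -0.475 in MOLM-13 and -0.387 in HEL, and 24 members were called lower in MOLM-13 (11 with TMM) and 25 in HEL (14 with TMM). The number called higher was 13 in each line. The higher calls lost were MED8, MED13L, TAF5L, TAF13 and TAF15 in MOLM-13, and MED7, MED21, MED23, TAF7, TAF11 and TAF12 in HEL. With no filter 6 members were called lower in MOLM-13, and DESeq2 also gave 6. Removing the GC and length trend left 12 called higher in HEL. Leaving out each library in turn gave 7 to 9 lower in MOLM-13, where the 7 came without cytosol replicate 2, and 6 to 15 higher and 4 to 9 lower for the difference between lines. That of MED1 ran from -0.481 to 0.0724. Values that changed sign were MED7 in HEL (-0.000434 with library totals, -0.322 and called lower with the trend removed) and TAF13 in MOLM-13 (-0.0573 and -0.21 in the same settings). Further ones were MED13L in MOLM-13 (-0.00159 with library totals), MED13 in MOLM-13 (-0.0952 with the trend removed) and the difference between lines of MED1 (0.0724 without HEL P-body replicate 1). Of the other members called, the sign also changed with library totals for MED8 (-0.0755) and TAF15 (-0.121) in MOLM-13 and TAF11 (-0.0563) in HEL, and with the trend removed for MED6 (-0.0733), MED19 (0.0316), MED24 (0.0433) and MED25 (0.211) in MOLM-13 and MED9 (0.0471), MED23 (-0.0177) and MED24 (0.024) in HEL. The cause was not tested.

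Calls kept under every alternative run were 11 of 18 higher and 4 of 11 lower in MOLM-13, and 10 of 19 higher and 5 of 14 lower in HEL. P-body and cytosol libraries of the same replicate number shared no deviation from their group means, with a correlation of -0.0103 in MOLM-13 and -0.0685 in HEL. Such a correlation cannot show whether libraries of the same number came from the same culture. With the replicate number as a block the counts were 18 and 11 in MOLM-13 and 19 and 14 in HEL, and 7 and 9 for the difference between lines, where TAF12 was lost (adjusted p = 0.0512). Depth limits TAF10, TAF1L, TAF7L and, in MOLM-13, MED12L.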
